A study of Mus musculus with 10 samples.

Results

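The genes described here are 10 genes that write, erase and read N6-methyladenosine (m6A), the methyl mark on adenosines inside messenger RNA. They were chosen by name and not by their values: the writers Mettl3, Mettl14, Wtap and Zc3h13, the erasers Alkbh5 and Fto, and the readers Ythdf1, Ythdf2, Ythdf3 and Ythdc1. All 10 were found by Ensembl gene ID among the 55487 genes of each RNA-seq table. The study took 10 samples from E14, a line of mouse embryonic stem cells, in 6 groups, and every value below comes from the 3 RNA-seq replicates. These E14 cells carried no stated genetic change and were cultured with 15% serum, LIF, a GSK inhibitor at 3 µM and a MEK1/2 inhibitor at 1 µM. The other 7 samples, R-loop maps, were not analysed here. With 1 RNA-seq group there is no contrast between conditions, so the comparisons are between genes and between replicates. The labels do not say whether the replicates came from separate cultures, so the spread between them may be technical.

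Writers work as a complex in the nucleus. Mettl3 transfers the methyl group from S-adenosylmethionine, Mettl14 is its partner and helps to hold the RNA, and Wtap and Zc3h13 bind and place the complex in the nucleus. Alkbh5 and Fto are oxygenases that remove the mark. YTH-domain proteins bind the methylated base, the Ythdf proteins mainly in the cytoplasm, where Ythdf2 is linked to RNA decay, and Ythdc1 in the nucleus. In mouse embryonic stem cells, loss of Mettl3 is known to hinder the exit from naive pluripotency.

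Library totals ran from 5787357 to 11420425 estimated counts, highest in replicate 1 and lowest in replicate 3. The stated cell type was checked with markers. All 6 stem cell markers (Pou5f1, Nanog, Sox2, Zfp42, Esrrb and Tdgf1) reached a mean of 1 TPM, with a summed level from 658 to 996 TPM over the replicates. TPM is a level per transcript length, scaled to 1 total per library. Of 6 fibroblast markers, Thy1 alone reached a mean of 1 TPM and Col3a1, Dcn and Acta2 had no counts, and the 6 summed to between 1.24 and 3.37 TPM. Of 6 lineage markers (Sox17, Gata6, Gata4, Pax6, T and Afp) 0 reached 1 TPM, and they summed to between 0.33 and 0.95 TPM. In bulk RNA, fewer cells using a gene and less RNA per cell cannot be told apart.

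The start-site regions of these genes shared a high CpG content. RefSeq windows (GRCm38.p6; 250 bases before to 50 after the start) were present for 8 of the 10 genes, in 11 windows, since Wtap has 3 and Zc3h13 has 2 that partly overlap. All 11 had a GC content of at least 50% and an observed to expected CpG ratio of at least 0.6, which 33.5% of all 32851 windows and 71.1% of the 9907 windows of protein-coding genes with a mean of at least 1 TPM also had. The windows of 3 genes are printed to show the range, with each CpG in capitals: the Mettl3 window has the fewest CpGs, a Wtap window the most, and the Fto window lies beside the start of a gene that runs the other way.
Mettl3, chr14:52305075-52305374, minus strand: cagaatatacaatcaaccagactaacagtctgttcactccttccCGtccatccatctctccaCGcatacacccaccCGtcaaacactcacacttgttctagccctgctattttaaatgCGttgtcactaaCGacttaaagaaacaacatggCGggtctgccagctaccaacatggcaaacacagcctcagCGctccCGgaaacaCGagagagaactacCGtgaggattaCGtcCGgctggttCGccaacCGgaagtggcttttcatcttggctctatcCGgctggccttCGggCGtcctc
Wtap, chr17:12992210-12992509, minus strand: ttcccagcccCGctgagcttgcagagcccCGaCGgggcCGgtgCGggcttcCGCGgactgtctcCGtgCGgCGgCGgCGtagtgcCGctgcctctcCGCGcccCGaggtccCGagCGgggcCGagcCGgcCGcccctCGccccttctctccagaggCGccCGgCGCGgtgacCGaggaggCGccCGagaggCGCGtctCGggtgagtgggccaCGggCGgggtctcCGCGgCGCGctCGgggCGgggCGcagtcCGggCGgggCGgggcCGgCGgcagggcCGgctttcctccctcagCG
Fto, chr8:91313275-91313574, plus strand: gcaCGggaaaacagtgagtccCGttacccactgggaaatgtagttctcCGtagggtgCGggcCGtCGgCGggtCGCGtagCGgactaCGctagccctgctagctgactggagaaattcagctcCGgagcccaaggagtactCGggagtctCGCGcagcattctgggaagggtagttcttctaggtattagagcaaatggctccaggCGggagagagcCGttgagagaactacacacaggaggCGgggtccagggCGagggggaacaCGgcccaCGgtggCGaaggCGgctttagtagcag

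These windows held 17 CpGs for Mettl3, 48 for Wtap and 23 for Fto, where the median of all windows was 7. That median covers windows of all genes, expressed or not. The TATA box letters TATAAA, searched on both strands, were in 0 of the 11 windows and in 6.28% of the windows of expressed protein-coding genes. The GC box letters GGGCGG were in 9 of the 11 windows, which belong to 6 of the 8 genes. They were in 65.4% of the windows of expressed protein-coding genes. A letter match describes the sequence and is not a measured binding site. Neither the Mettl3 nor the Fto window held the GC box letters. The Wtap start of that window lies 1910 bp from the start of the gene in GENCODE vM21. In that annotation, Fto was the one gene of the 10 with a head-to-head neighbour, meaning a gene on the opposite strand whose start lies within 1000 bp. That neighbour, Rpgrip1l, a gene of the primary cilium, starts 263 bp away and had 1.56, 1.47 and 1.46 TPM in replicates 1, 2 and 3.

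All 10 genes were expressed. Each had a mean of at least 5 TPM, a level that 24.1% of protein-coding genes reached. A mean of at least 1 TPM was reached by 44.1% of protein-coding genes and by 19.8% of all genes. The median of the 10 in log2(TPM + 1) was 3.47 ± 0.39 (SD, n = 3), beside 2.72 ± 0.29 (SD, n = 3) for the 9683 protein-coding genes with a mean of at least 1 TPM. The level in TPM depends on its denominator: with genes of effective length under 100 nt left out of it, the median of the 10 was 4.83. That change raises the TPM of all remaining genes in a library by the same factor, so 4.83 does not compare with 2.72. Mean levels ran from 5.32 TPM for Mettl14 to 23.6 TPM for Ythdf1. In that range the genes lay between percentile 47.3 and percentile 87.3 of those 9683 genes. The plot of TPM by gene and replicate shows them by role.

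**Figure D1:**
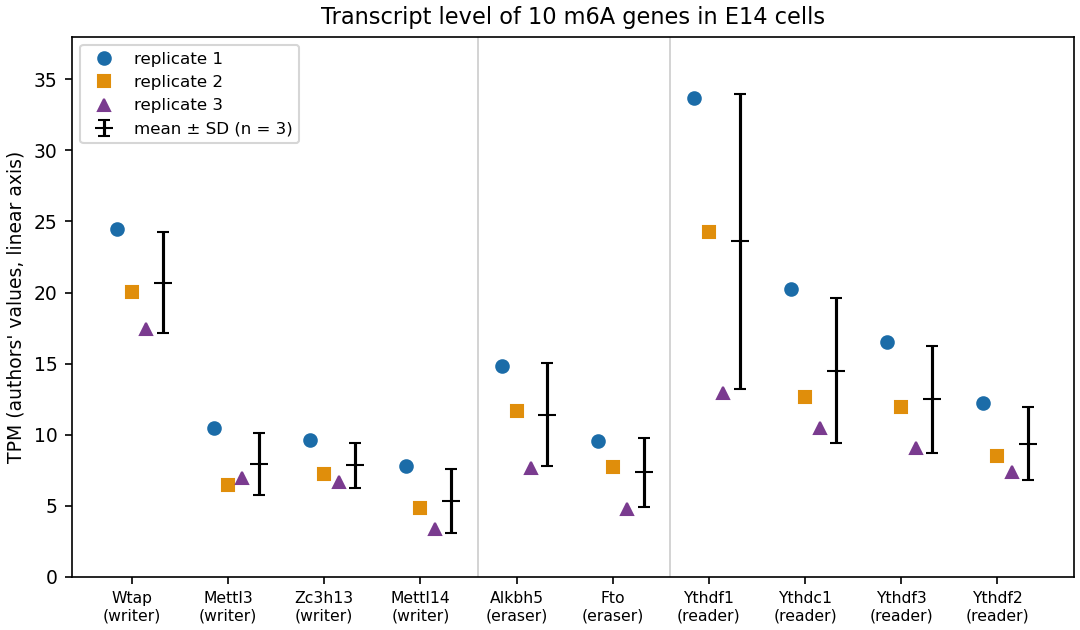
TPM (linear axis) of the 4 writers, 2 erasers and 4 readers in the 3 replicates, with the mean and SD (n = 3) beside the points. Ythdf1 and Wtap are the highest by mean, Mettl14 is the lowest in every replicate, and replicate 1 is the highest for all 10 genes.

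Among the writers, the adaptor Wtap stood above the other 3 subunits. Wtap (ENSMUSG00000060475, chromosome 17, 12966796 to 12994169) had 24.5, 20.04 and 17.43 TPM in replicates 1, 2 and 3, a mean of 20.7 ± 3.58 TPM (SD, n = 3). The lowest of these exceeded every value of Mettl3, Zc3h13 and Mettl14. Mettl3 (ENSMUSG00000022160, chromosome 14, 52294841 to 52305128) had 10.47, 6.48 and 6.92 TPM, a mean of 7.96 ± 2.19 TPM (SD, n = 3). Zc3h13 (ENSMUSG00000022000, chromosome 14, 75284373 to 75344426) had 9.62, 7.22 and 6.67 TPM, a mean of 7.84 ± 1.57 TPM (SD, n = 3). These 2 subunits overlapped throughout, and which was higher changed between replicates. Mettl14 (ENSMUSG00000028114, chromosome 3, 123368297 to 123386108), the partner of Mettl3, had 7.76, 4.81 and 3.38 TPM, a mean of 5.32 ± 2.23 TPM (SD, n = 3). It was last of the 10 genes in each replicate.

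Ratios taken within a library do not depend on that library's total. The Mettl3 to Mettl14 ratio of TPM was 1.35, 1.35 and 2.05 in replicates 1, 2 and 3, or 0.63 ± 0.35 on the log2 scale (SD, n = 3). All 3 ratios were above 1, but the mean lay within 2 SD of 0, so the 2 core subunits were not separated beyond their spread. The Wtap to Mettl3 ratio was 2.34, 3.09 and 2.52, or 1.40 ± 0.21 on the log2 scale (SD, n = 3), which lies beyond 2 SD. The Zc3h13 to Mettl3 ratio was 0.919, 1.11 and 0.964, or -0.01 ± 0.14 on the log2 scale (SD, n = 3). The ratios are given without a test, since an exact two-sided sign test over 3 replicates cannot go below 0.25.

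Of the 2 erasers, Alkbh5 was the higher in each library. Alkbh5 (ENSMUSG00000042650, chromosome 11, 60536381 to 60558512) had 14.84, 11.69 and 7.62 TPM, a mean of 11.4 ± 3.62 TPM (SD, n = 3). Fto (ENSMUSG00000055932, chromosome 8, 91313525 to 91668439), which also acts on the methylated base next to the RNA cap, had 9.54, 7.72 and 4.75 TPM, a mean of 7.34 ± 2.42 TPM (SD, n = 3). Across libraries the 2 ranges overlapped, and both genes were lowest in replicate 3. Within libraries the Alkbh5 to Fto ratio was 1.56, 1.51 and 1.60, or 0.64 ± 0.04 on the log2 scale (SD, n = 3), the smallest spread of the 8 ratios computed.

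Among the readers, Ythdf1 had the highest mean and the widest spread. Ythdf1 (ENSMUSG00000038848, chromosome 2, 180904377 to 180920949), linked to translation of methylated RNA, had 33.68, 24.29 and 12.96 TPM, a mean of 23.6 ± 10.4 TPM (SD, n = 3). Ythdf3 (ENSMUSG00000047213, chromosome 3, 16183212 to 16217037), its close paralog, had 16.54, 11.94 and 9.07 TPM, a mean of 12.5 ± 3.77 TPM (SD, n = 3). Ythdf2 (ENSMUSG00000040025, chromosome 4, 132184912 to 132212303), the decay-linked paralog, had 12.26, 8.48 and 7.38 TPM, a mean of 9.37 ± 2.56 TPM (SD, n = 3). By TPM the order Ythdf1, Ythdf3, Ythdf2 held in all 3 libraries. Ythdf1 made up 53.9%, 54.3% and 44.1% of the summed TPM of the 3 paralogs, and Ythdf2 19.6%, 19.0% and 25.1%. The Ythdf2 to Ythdf1 ratio was -1.26 ± 0.39 on the log2 scale (SD, n = 3), and the Ythdf3 to Ythdf1 ratio was -0.86 ± 0.29 (log2; SD, n = 3). The lead of Ythdf1 over Ythdf3, and its share of the sum, depended on the length used: that log2 ratio was 0.67 on estimated counts without length and -0.01 per kb of the longest coding transcript. By TPM both ratios to Ythdf1 were closer to 0 in replicate 3, at -0.81 and -0.51, than in the other libraries. The Ythdf2 to Ythdf3 ratio was -0.41 ± 0.10 on the log2 scale (SD, n = 3).

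The nuclear reader Ythdc1 (ENSMUSG00000035851, chromosome 5, 86804221 to 86836659) had 20.23, 12.68 and 10.47 TPM, a mean of 14.5 ± 5.12 TPM (SD, n = 3). It had rank 3 of the 10 genes in each library. Its ratio to Ythdf2 was 1.65, 1.5 and 1.42, or 0.60 ± 0.11 on the log2 scale (SD, n = 3), beyond 2 SD. Summed by role, the 4 readers held 60.0 ± 21.5 TPM, the 4 writers 41.8 ± 9.4 TPM and the 2 erasers 18.7 ± 6.03 TPM (SD, n = 3). These sums cover unequal numbers of genes and depend on the length used. The median of the mean TPM per gene was 13.5 for the readers, 7.9 for the writers and 9.36 for the erasers. Wtap made up 20.7 of the 41.8 TPM of the writers.

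By mean TPM the order was Ythdf1, Wtap, Ythdc1, Ythdf3, Alkbh5, Ythdf2, Mettl3, Zc3h13, Fto and Mettl14. Of the 9 pairs of neighbours in this order, 2 differed by more than 2 SD of their log2 ratio: Wtap above Ythdc1 by 0.56 ± 0.25 and Fto above Mettl14 by 0.49 ± 0.19 (log2; SD, n = 3). The other 7 pairs did not differ beyond their spread, and in 0 of the 9 were the TPM ranges of the replicates apart. Ythdf1 and Wtap exchanged places in replicate 3, with log2 ratios of 0.46, 0.28 and -0.43. Of all 45 pairs among the 10 genes, 41 kept one order in every replicate and 31 lay beyond 2 SD. The 2 protein-coding genes closest to Ythdf1 in log2(TPM + 1) over the 3 replicates were Kat7 and Crtap, at Euclidean distances of 0.072 and 0.122. Those closest to Mettl14 were Cwf19l1 and Pomt1, at 0.064 and 0.077.

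The level per length depended on which length was used. The length in the tables differed between replicates of the same gene, as an average over a gene's transcripts weighted by their estimated abundance does. For Mettl3 that length was 937, 1130 and 1039 nt in replicates 1, 2 and 3, although its longest annotated protein-coding transcript has 2025 nt in 11 exons. Its mean length was thus 51.1% of the longest coding transcript. This share was 28.4% for Mettl14, 35.0% for Zc3h13 and 47.5% for Ythdf1, but 99.4% for Alkbh5. Its median was 72.1% over the 10 genes and 80.1% over 9675 expressed protein-coding genes. Mettl14, Zc3h13, Ythdf1 and Mettl3 were therefore scaled by lengths far under those of their longest coding transcripts. Which transcripts were present cannot be read from gene-level tables.

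A second scale was computed from the estimated counts, per kb of the longest protein-coding transcript and per 1000000 counts. On it Wtap had rank 1 at 38.6 ± 0.603 and Alkbh5 rank 2 at 30.5 ± 5.31 (SD, n = 3). Alkbh5 had rank 5 by TPM. Ythdf1 went from rank 1 to rank 4, at 27.6 ± 7.41 (SD, n = 3), beside 28.8 ± 4.73 for Ythdc1 and 26.9 ± 3.94 for Ythdf3. Mettl14 stayed last at 3.79 ± 0.619 (SD, n = 3). On this scale the Ythdf3 to Ythdf1 log2 ratio was -0.01, so the lead of Ythdf1 over Ythdf3 was not present there. The Mettl3 to Mettl14 log2 ratio was 1.37, above its value by TPM. On the estimated counts without length it was -0.46, so its direction rested on the length used.

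**Figure D2:**
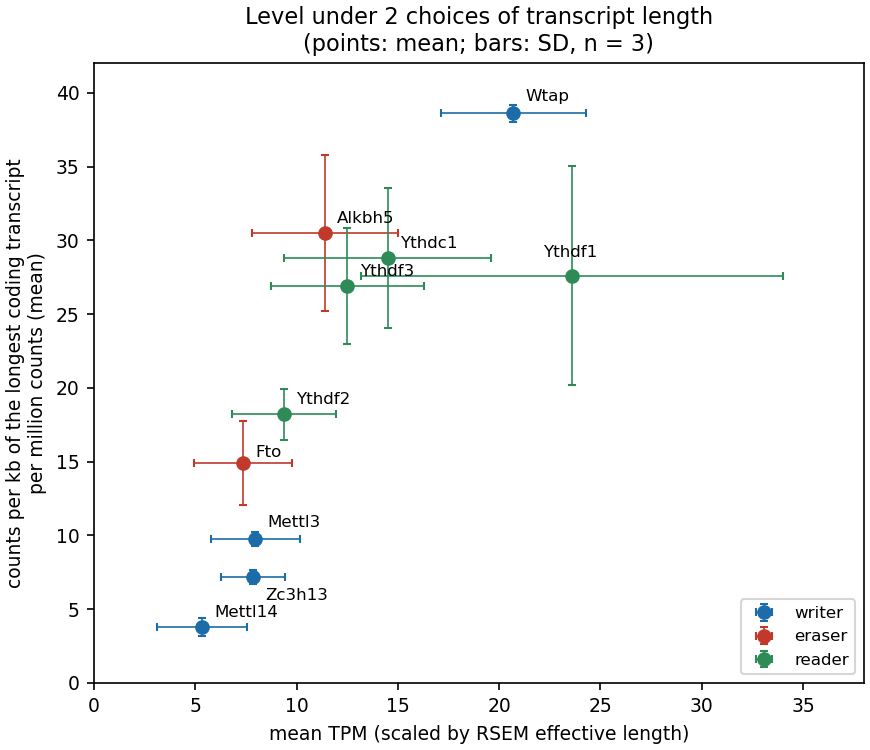
Mean TPM (horizontal axis) against counts per kb of the longest protein-coding transcript per 1000000 counts (vertical axis) for the 10 genes, both linear, with SD over 3 replicates as bars. Ythdf1 is the farthest right at 23.6 TPM but level with Ythdf3 and Ythdc1 on the vertical axis, and Mettl14 is lowest on both.

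The replicates were compared without length, as CPM with TMM scaling, a count per 1000000 reads corrected for differences in library make-up. This was needed because TPM differed between libraries for most genes: the median log2 difference in TPM over expressed protein-coding genes was -0.33 for replicate 2 minus 1 and -0.62 for replicate 3 minus 1. The 10 genes had medians of -0.47 and -0.91, with 8 and 7 of the 10 below the median of those genes. For replicate 3 minus 2 the 10 genes had a median of -0.34 beside -0.29, with 5 of the 10 below. Among the writers on the TMM scale, Zc3h13 had 43.3, 45.4 and 44.5 CPM, Wtap 119, 121 and 132, and Mettl3 19.0, 18.2 and 22.4 CPM in replicates 1, 2 and 3. Mettl14 had 30.2, 27.0 and 24.7 CPM. The largest value was 1.05 times the smallest for Zc3h13, 1.11 for Wtap, 1.23 for Mettl3 and 1.22 for Mettl14, and Mettl14 alone of the 4 was lowest in replicate 3.

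The spreads of the readers and erasers overlapped those of the writers. Ythdf1 had 100, 95.7 and 66.5 TMM-scaled CPM, the widest spread of the 10 genes at a fold of 1.51. Fto had 73.2, 77.5 and 59.7 CPM and Alkbh5 had 185, 187 and 152 CPM. Ythdc1 had 102, 96.6 and 83.8 CPM, and Ythdf3 had 148, 138 and 126 CPM. Ythdf2 had 78.7, 73.4 and 74.2 CPM. The folds of Fto, Alkbh5, Ythdc1, Ythdf3 and Ythdf2 were 1.3, 1.23, 1.22, 1.18 and 1.07. Those of Ythdf1 and Fto were above the fold of every writer. In all, 6 of the 10 genes were lowest in replicate 3, as were 40.4% of the 12577 genes tested.

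The goodness-of-fit test of edgeR called none of the 10 genes as varying between replicates beyond genes of similar abundance. With the Benjamini-Hochberg adjusted p limited to 0.05 the count was 0 of 10, where 1.84% of all 12577 genes were called. At an unadjusted p under 0.05 it was also 0 of 10, where 6.96% of all genes passed. The same test with DESeq2 size factors called 0 of 10. Ythdf1 came closest, with an unadjusted p of 0.149 and an adjusted p of 1 by edgeR. Counts of 0 of 10 lie near the shares of all genes, so they set these 10 genes apart in no way. A p above the threshold does not show that the replicates were alike.

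Replicate 3 differed from the others with gene length, and 6 of the 10 genes lay within 0.1 (log2) of the median of genes of their own length in it, as did 40.4% of all genes whose mean count was 100 or more. Alkbh5, in the decile of longest genes, deviated by -0.19 (log2) in replicate 3, where the median of its decile was -0.15. Ythdf3 deviated by -0.12 beside a decile median of -0.09, and Mettl3, a short gene by this measure, by 0.18 beside 0.12. The 4 others were lower than their deciles. Mettl14 deviated by -0.14 beside 0.02, Fto by -0.22 beside -0.07 and Ythdc1 by -0.16 beside -0.02. Ythdf1 deviated by -0.37 beside 0.08. Both Ythdf1 and Mettl14 thus had a sign opposite to that of their deciles. The part of length in these deviations was not tested gene by gene. With a smooth correction for length, the unadjusted p of Ythdf1 was 0.0388 and its adjusted p 0.686 by edgeR.

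**Figure D3:**
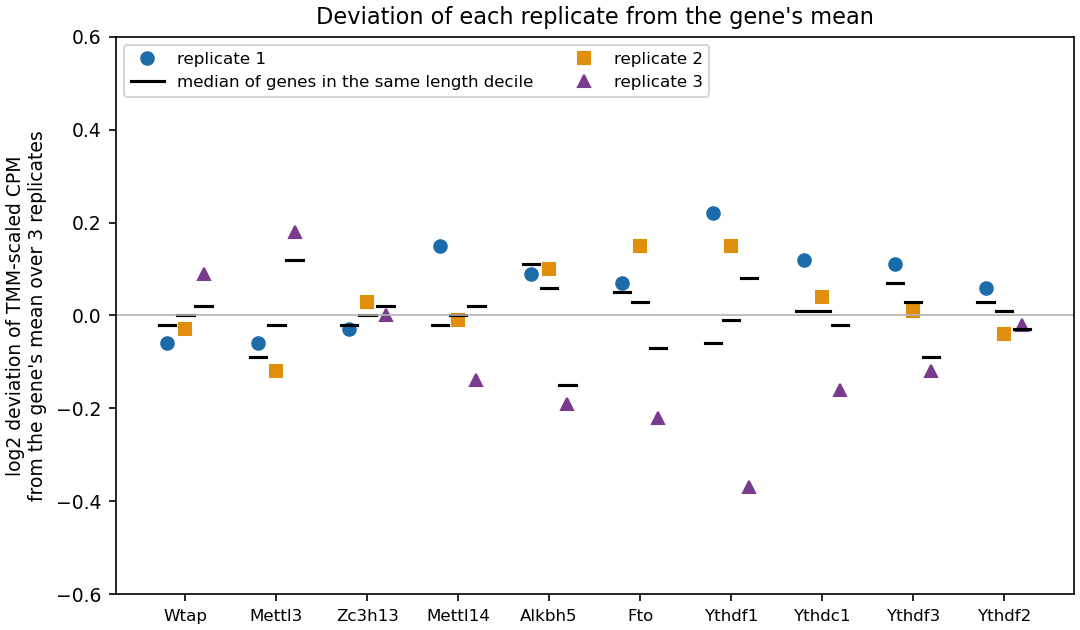
Log2 deviation of TMM-scaled CPM in each replicate from the gene's own mean (vertical axis) for the 10 genes, with black bars for the median of genes in the same length decile. Ythdf1 in replicate 3, at -0.37, is the point farthest from 0 and lies opposite to its decile's bar.

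The wider m6A pathway was described with 32 further genes. All 32 reached a mean of 1 TPM and 20 reached 5 TPM, with a median in log2(TPM + 1) of 3.03 ± 0.33 (SD, n = 3). Of the other writer-complex subunits, the scaffold Virma had 7.89, 6.39 and 5.77 TPM and the RNA-binding Rbm15 had 8.95, 7.11 and 5.07 TPM. Both overlapped the ranges of Mettl3 and Zc3h13. Rbm15b, the paralog of Rbm15, was lower at 2.78 ± 0.477 TPM (SD, n = 3). Cbll1, also known as Hakai, had 6.15, 4.34 and 1.53 TPM. Of the enzymes that methylate other RNAs, Mettl16, which acts on U6 snRNA and Mat2a RNA, had 8 ± 1.18 TPM (SD, n = 3). The ribosomal RNA enzymes Mettl5 and Zcchc4 had 5.48 ± 1.27 and 3.14 ± 1.18 TPM (SD, n = 3), and Pcif1, the enzyme of the cap-adjacent mark, had 4.63 ± 2.1 TPM (SD, n = 3).

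The fifth YTH gene, Ythdc2, best known from meiosis, had 2.91, 2.62 and 1.89 TPM. Each value was below every value of the 4 other YTH genes. The 3 Igf2bp genes, RNA-stabilising proteins proposed as readers, ran from 9.96 TPM for Igf2bp3 to 19.9 TPM for Igf2bp1. The 7 further AlkB-family genes, relatives of Alkbh5 and Fto with other substrates, had means from 2.91 to 9.75 TPM, all under that of Alkbh5. The highest of them, Alkbh1, lay above the mean of Fto, 7.34 TPM. In replicate 3 Alkbh1 had 8.11 TPM, above the 7.62 TPM of Alkbh5. Mat2a, which makes the methyl donor, had 43.9 ± 6.86 TPM (SD, n = 3). Cnot1, the scaffold of the deadenylase that Ythdf2 recruits, was the highest of the 32 at 148 ± 36.3 TPM (SD, n = 3). Rbmx was the lowest at 1.23 ± 0.306 TPM (SD, n = 3).

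Of the 32 further genes, 2 varied between replicates in the same edgeR test, beside the 1.84% of all genes; whether the 2 lists differ was not tested. Both were lowest in replicate 3. Cbll1 had 39.6, 37.1 and 15.1 TMM-scaled CPM (edgeR adjusted p 0.0165). Prrc2a, a proposed m6A-binding protein, had 232, 212 and 78.2 CPM (edgeR adjusted p 0.00212). Without replicate 3 neither passed, at adjusted p 0.999 for each, and Cbll1 did not pass without replicate 1 (0.121) or replicate 2 (0.159).

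**Figure D4:**
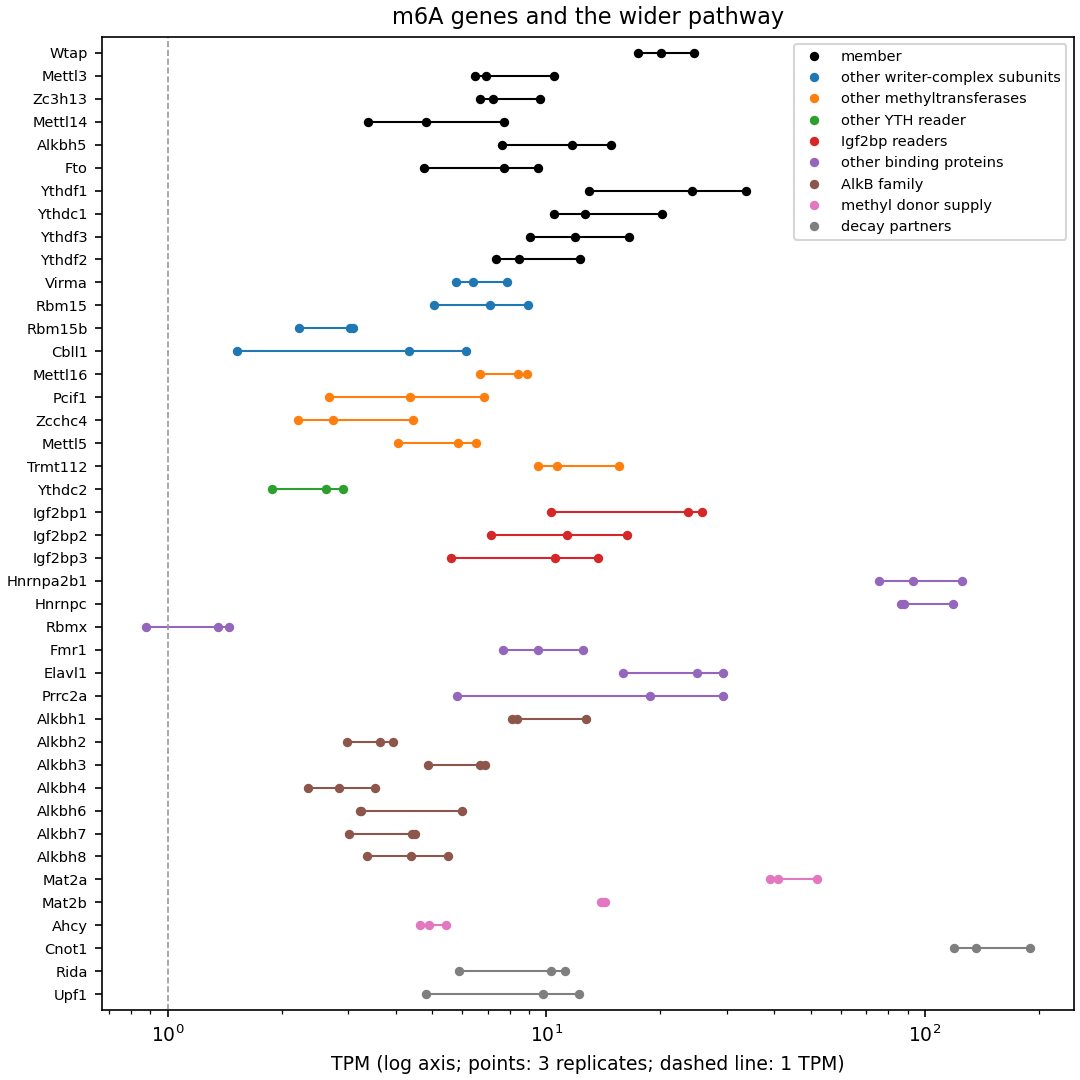
TPM (log axis) in the 3 replicates for the 10 genes (black) and 32 further pathway genes (coloured by list); lines join the lowest and highest replicate, and the dashed line marks 1 TPM. Cnot1, Hnrnpa2b1 and Hnrnpc lie highest, Rbmx lies lowest with 1 replicate under 1 TPM, and the wide lines of Cbll1 and Prrc2a end at replicate 3.

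The motif GGACT, the most common core of m6A sites, was counted in the longest protein-coding transcript of each gene as a feature of sequence. It occurred 1.98 times per kb in Mettl3, 1.88 in Wtap and 1.75 in Alkbh5, and 0.314 in Ythdf1 and 0.196 in Ythdf3. The rates of Ythdf1 and Ythdf3 rest on 1 motif each. The median was 0.916 per kb over the 10 genes and 1.03 over expressed protein-coding genes. The 10 genes were therefore spread from percentile 8.72 for Ythdf3 to percentile 88.8 for Mettl3 of expressed protein-coding genes. Whether these sites were methylated was not measured.

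Counting error and overlap with other genes are among the limits on these levels. The lowest count among the 10 genes was 119 for Mettl3 in replicate 3, with an exact Poisson 95% interval from 98.6 to 142 that covers counting error only. The highest was 2208 for Alkbh5 in replicate 1. Estimated counts were whole numbers, within 0.005, in every replicate for 9 of the 10 genes, and for 78.6% of genes of at least 100 counts in every replicate. Those of Wtap were not, as RSEM gives when reads also match another gene. Mettl3 overlaps Tox4, a gene on the opposite strand, over 1561 bp. Tox4 had 8.86, 8.47 and 6.72 TPM, and no source used here says whether counting used strand. The counts of Mettl3 were whole in every replicate, while Tox4 had 951.5, 537.5 and 364.8. Whether reads from that stretch were counted for the wrong gene was not tested.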

How the data were processed

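RNA was measured in 3 replicates of E14 cells, as rRNA-depleted total RNA in directional libraries, per the labels' protocols. The submitters' processing notes name STAR and RSEM among their tools and mm10 as the build. Versions, annotation release and strand setting are not given in the sources used here. Per the file headers, the authors deposited for each gene an estimated count (expected count), not normalized, and TPM, scaled by effective length. Length and effective length stand beside them.

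GENCODE vM21 (GRCm38) gave names and coordinates, by Ensembl ID, for 55227 of 55487 genes. Promoter windows came from RefSeq (GRCm38.p6). Library totals were 11420425, 6467405 and 5787357 estimated counts, and a floor of 3 counts is 0.263, 0.464 and 0.518 CPM.

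Estimated counts were rounded for edgeR 4.0.16 (R 4.3.3), with an intercept-only fit, TMM, filterByExpr, trended dispersion and the goodness-of-fit test over all genes passing the filter. In a run on simulated data, this test missed most genes changed 2-fold in a single replicate. Other steps used Python 3.11.15. Alternatives changed units, pseudocount, length, filter, dispersion, size factors (DESeq2 1.42.0) and replicates. The genes and lists were chosen with earlier results of these data known. Genes named are the 10, the pathway and marker lists, annotated neighbours, and the 2 genes nearest in level to the highest and to the lowest of the 10. Planned protein comparisons were not made.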

Additional observations from a re-analysis of the deposited data

How the results depend on the processing

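The 15 results were recomputed in 97 alternatives, 84 planned and 13 chosen after seeing the data. Of these, 72 stayed the same, 20 moved, 4 no longer passed and 1 reversed. Same meant within the spread, on the same side of the threshold or, for counts, close to the main count. Reversal was counted where the value lay beyond 2 SD of 0, so sign changes of the Mettl3 to Mettl14 and Zc3h13 to Mettl3 ratios, which did not, are not among them. The number of the 10 genes expressed stayed at 10 and the number called as varying between replicates at 0 in every alternative run.

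Length scaling moved the most. On estimated counts without length, the log2 ratios became -0.46 for Mettl3 to Mettl14, 2.64 for Wtap to Mettl3, 1.16 for Zc3h13 to Mettl3, 1.32 for Alkbh5 to Fto, -0.19 for Ythdf2 to Ythdf1, -0.86 for Ythdf2 to Ythdf3 and 0.32 for Ythdc1 to Ythdf2. Ythdf3 to Ythdf1 reversed to 0.67. Per kb of the longest coding transcript, a choice made after seeing the data, the same ratios were 1.37, 1.99, -0.44, 1.04, -0.57 and -0.56 for the first 6, and -0.01 for Ythdf3 to Ythdf1. These alternatives differ from TPM by construction in the length alone. Adding 1 to TPM moved Alkbh5 to Fto to 0.57.

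The median of the 10 genes, 3.47, became 6.35 with CPM, 4.83 without genes of effective length under 100 nt in the denominator and 4.49 per kb of the longest coding transcript. Neighbours in order separated by non-overlapping TPM ranges were 0, against 2 beyond 2 SD. Those beyond 2 SD were 3 with CPM, per kb of the longest coding transcript, without replicate 2 and without replicate 3. These changes from 2 to 3 were counted as the same. With a limit of 5 TPM, 20 of the 32 pathway genes counted as expressed. Of the 10 genes, Mettl3 had the lowest counts in each replicate, so relative counting error was largest for it.

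No paired analysis was possible between groups because the comparisons involve a single group, the RNA-seq replicates. The ratios between genes were taken within each library, so there the genes were paired by library.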
